A study of Mus musculus with 12 samples.

Results

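The 36 genes described here encode the machinery by which the small intestine alters and expels foreign chemicals, and they were followed in the jejunum of 12 male mice in 4 groups of 3. They were taken from a list of symbols and found on the array through the RefSeq accessions of their probes, among 22911 symbols in all. All 36 were on the array, with 45 probes, and 9 of them had more than 1 probe. Of these, 35 passed the filter on dim probes and were tested among 27565 features, 15812 of them with a gene symbol. The exception was Cyp1a1.

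Ingested chemicals meet these proteins in sequence in the absorbing cells of the gut. Cytochromes P450, fed with electrons by the reductase Por, and other oxidising or hydrolysing enzymes add or expose a reactive group (phase I). Glutathione S-transferases, sulfotransferases and UDP-glucuronosyltransferases attach a water-soluble group to it, and pumps of the ATP-binding cassette family move drugs and conjugates back into the lumen. The receptors PXR (Nr1i2), CAR (Nr1i3) and AHR (Ahr) bind foreign chemicals and switch on many of these genes.

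The wild-type mice and the IAP knockout mice (Akp3-/-), which lack the gene Akp3 for an intestinal alkaline phosphatase, were dosed by mouth once a day for 14 days from 7 weeks of age. One group of each genotype received vehicle, a solution of carboxymethylcellulose sodium salt at 5 g/L, and the other received IIAEK, a peptide of 5 amino acids known for lowering cholesterol, at 600 mg per kg of body weight per day. The titles and the treatment protocol give the duration in days, and the source text of the IIAEK samples gives it in weeks; days are used here. The jejunum was collected after a fast of 8 h, and total RNA of each mouse was hybridised to an array of its own. The knockout is of Akp3 alone in the whole animal; the labels name no strain, litter or cage.

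A level is the log2 signal of the gene's brightest probe minus the 75th percentile of the array, so that 0 is the brightness below which 75% of the signals on the array lie, and it cannot be set against the level of another probe. In lists of values by array, replicates 1 to 3 stand in order. Akp3 stood at -3.81, -4.43 and -6.42 in wild type on vehicle and at -4.39, -1.61 and -1.74 in wild type on IIAEK, well above background on 5 of these 6 arrays. In the knockout it lay between -7.33 and -5.96 and was not well above background on any of the 6 arrays. The arrays had a 75th percentile of 575 to 816, and from 59.99% to 67.1% of their spots cleared the background. All 12 of the enterocyte markers passed the filter on dim probes. Of the 7 liver markers, 4 (Alb, Apoh, Tat and Ttr) passed it and 3 (Ahsg, Hpx and Fgb) did not.

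No member passed an adjusted p of 0.05 in any of the 7 comparisons of the design, and the widest differences were between single mice. Of the 35 tested members, 17 (48.6%) had their lowest level in 1 array, wild type on IIAEK replicate 3, where 18.2% of all tested features had theirs. These 17 were Cyp2c29, Cyp2c66, Cyp2j6, Cyp3a11, Cyp3a13, Cyp3a25, Adh1, Akr1b7, Aldh1a1, Ephx2, Ces2e, Gstt1, Sult1b1, Sult1d1, Ugt2a3, Ugt2b34 and Abcc2. Another 8 members, Gsta4, Gstm1, Gstm3, Gstp1, Cyp2c55, Cyp2d26, Ephx1 and Nr1i2, were lowest in knockout on IIAEK replicate 3 (22.9%, beside 11.5% of all tested features). The median SD between mice of a group was 0.25 for the members in wild type on vehicle and 0.47 in wild type on IIAEK, beside 0.18 and 0.21 over all tested features.

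**Figure D1:**
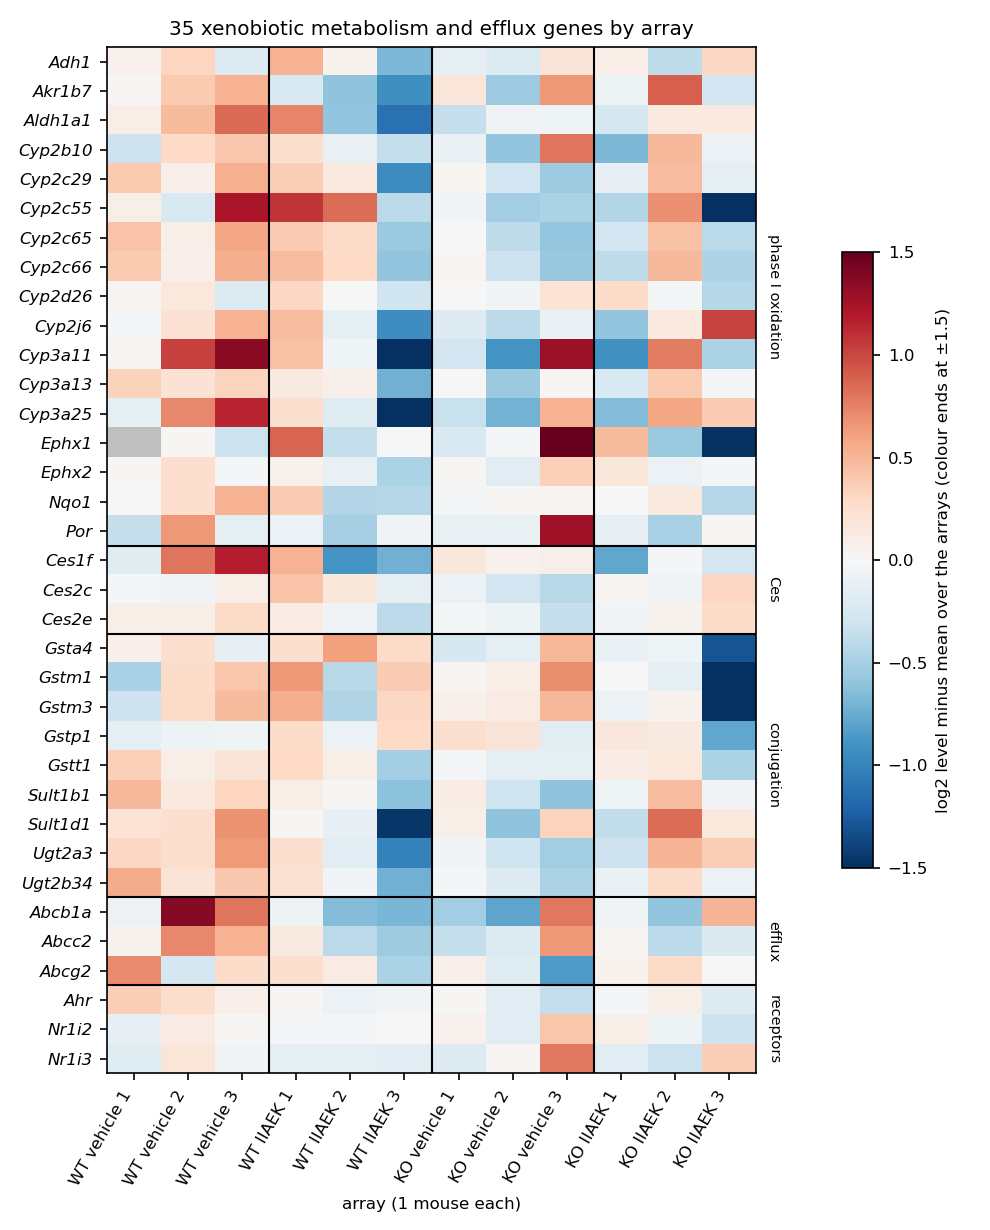
Level of each of the 35 tested genes (rows, grouped by role; Ces, carboxylesterases) on each of the 12 arrays (columns), as the log2 level minus the gene's mean over the arrays; red is higher, blue is lower, and grey is the Ephx1 spot removed as an outlier. Wild type on IIAEK replicate 3 is blue in 30 of the 35 rows. Knockout on IIAEK replicate 3 is blue in 23, most deeply in Gsta4, Gstm1, Gstm3, Gstp1, Cyp2c55 and Ephx1.

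Other tissue also varied between the mice. The 11 exocrine pancreas markers, all 11 of which passed the filter, had a score (the mean of the log2 deviations from each gene's mean) of -1.35 to 1.16 in wild type on vehicle, -2.04 to 8.32 in wild type on IIAEK, -2.56 to 4.04 in knockout on vehicle and -2.63 to -1.54 in knockout on IIAEK. The highest scores were those of wild type on IIAEK replicate 3 and knockout on vehicle replicate 3. Wild type on IIAEK replicate 3 was also highest in the 12 smooth muscle markers, at 0.95. The same held for the 5 markers of proximal small intestine (Gata4, Cybrd1, Slc40a1, Hamp2 and Slc11a2), at 1.09. The levels of the single markers behind these scores are not given. The enterocyte score was -0.24 on that array and between -0.13 and 0.25 on the others. The part of these differences in the results was not tested. In RNA from whole tissue, fewer cells of a type and less RNA per cell cannot be told apart.

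IIAEK against vehicle in wild type asked whether the peptide alters the jejunum of mice with IAP. Most phase I, conjugation and efflux genes had lower mean levels on IIAEK, at most 2.72-fold, and none passed the test across all genes. Of the 35 members, 28 were below 0 in log2 change and 7 above, with a median change of -0.27; over all tested features 57% were below 0 and the median change was -0.062. In limma's test 0 of 35 had an adjusted p under 0.05, as had 0% of all tested features, and the smallest adjusted p among the members was 0.37. At an unadjusted p under 0.05 stood 7 members (20%), all lower, against 13% of all tested features. In 6 members the arrays of the groups did not overlap, which is 17.1%, against 25.3% of all tested features. Without wild type on IIAEK replicate 3 the median change of the members was -0.11, 26 of 35 were below 0, and 0 stood at an unadjusted p under 0.05. Without wild type on vehicle replicate 3 that count was also 0, and without wild type on vehicle replicate 2 it was 1. Without wild type on IIAEK replicate 2 it was 3, and without wild type on IIAEK replicate 1 it was 14. The share of all tested features at that threshold is not given for these refits, so the counts cannot be set against other genes. The median change was 0.094 within slide 1, with 1 mouse of each group, and -0.47 within slide 2, with 2 mice of each. Some marker lists had scores that did not overlap between these groups. Smooth muscle (12 of 12 markers tested) scored -0.81 to -0.16 on vehicle and -0.12 to 0.95 on IIAEK, proliferation (9 of 9) -0.38 to -0.14 and -0.10 to 0.49, and distal small intestine (4 of 5, without Fgf15) -0.046 to 0.90 and -0.49 to -0.12. Their part in the result was not tested.

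The Cyp3a enzymes oxidise a broad range of drugs and steroids. Cyp3a11 stood at 4.48, 5.46 and 5.79 in wild type on vehicle, at 4.87, 4.37 and 2.15 in wild type on IIAEK, at 4.15, 3.54 and 5.73 in knockout on vehicle and at 3.52, 5.20 and 3.96 in knockout on IIAEK. The lowest mouse was 12.5-fold below the highest, the widest range of the 35 tested members, and the groups overlapped in all comparisons of one group with another. Its log2 change on IIAEK was -1.45 (SE 0.74, adjusted p = 0.40 in limma) in wild type and -0.24 (SE 0.74, adjusted p = 0.96) in knockout. Without wild type on IIAEK replicate 3 the change in wild type was -0.62, and the change in knockout lay between -0.73 and 0.38 when 1 array at a time was left out. Cyp3a25 followed Cyp3a11 over the 12 mice with a Pearson r of 0.94 (permutation p = 3e-05) and a Spearman rho of 0.90 (permutation p = 0.00024). Without wild type on IIAEK replicate 3 and wild type on vehicle replicate 3, the mice farthest from the median in Cyp3a11, r was 0.85. It was 0.99 among the 6 mice of slide 1 and 0.93 among the 6 of slide 2. Such pairs within a family share a group structure, and their probes may share sequence, which was not tested.

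The 250 bases before the start of Cyp3a11, Cyp3a25 and of the Cyp2c pair described next are shown, from RefSeq on GRCm38.p6, in the gene's direction 5′ to 3′. Capitals mark the nuclear receptor half-sites AGGTCA and AGTTCA and the HNF4-type site CAAAGTCCA, each searched on both strands.
Cyp3a11, chr5:145879855-145880104, minus strand: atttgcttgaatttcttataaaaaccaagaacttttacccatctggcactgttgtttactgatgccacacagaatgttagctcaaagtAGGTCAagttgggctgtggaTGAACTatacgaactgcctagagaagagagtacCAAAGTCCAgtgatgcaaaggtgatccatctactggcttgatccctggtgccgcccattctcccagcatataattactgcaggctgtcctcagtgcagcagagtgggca
Cyp3a25, chr5:146009619-146009868, minus strand: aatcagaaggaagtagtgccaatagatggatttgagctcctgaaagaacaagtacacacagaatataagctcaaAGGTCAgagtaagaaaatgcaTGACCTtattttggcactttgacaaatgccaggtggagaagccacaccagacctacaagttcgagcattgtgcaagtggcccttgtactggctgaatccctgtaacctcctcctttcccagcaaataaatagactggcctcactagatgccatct
Cyp2c65, chr19:39060756-39061005, plus strand: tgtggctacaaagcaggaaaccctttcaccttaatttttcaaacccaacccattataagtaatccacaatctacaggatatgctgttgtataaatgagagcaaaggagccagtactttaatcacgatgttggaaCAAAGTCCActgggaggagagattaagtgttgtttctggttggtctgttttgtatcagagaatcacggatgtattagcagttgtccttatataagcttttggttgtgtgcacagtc
Cyp2c66, chr19:39113648-39113897, plus strand: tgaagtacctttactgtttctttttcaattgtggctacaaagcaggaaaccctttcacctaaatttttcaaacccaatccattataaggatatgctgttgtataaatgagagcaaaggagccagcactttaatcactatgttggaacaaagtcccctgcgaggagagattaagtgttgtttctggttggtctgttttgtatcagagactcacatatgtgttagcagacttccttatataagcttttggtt
Cyp3a11 held AGGTCA at 162 bases, the reverse complement of AGTTCA at 142 bases and the HNF4-type site at 109 bases before the start. Cyp3a25 held AGGTCA at 176 bases and its reverse complement at 155 bases. Cyp2c65 held the HNF4-type site at 116 bases, and Cyp2c66 held none of the 3 motifs. The Cyp2c pair was identical at 74.6% of aligned positions and the Cyp3a pair at 52.7%, beside 48.7% for Cyp2c65 with Cyp3a11 and 46.7% for Cyp2c66 with Cyp3a25. The reference tables held such a stretch for 32 of the 36 genes and for 27025 genes in all. AGGTCA occurred in 7 of the 32 and in 13.8% of all, AGTTCA in 4 and 11.9%, and CAAAGTCCA in 2 and 0.38%. The AHR core GCGTG occurred in 6 of the 32 (Cyp1a1, Cyp2b10, Gstm1, Gstp1, Por and Sult1d1) and in 28.2% of all, and the NRF2 element TGACNNNGC in 1 (Abcc2) and 10.1%. A match of letters is a description and no evidence of binding.

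The Cyp2c enzymes oxidise drugs and fatty acids. Cyp2c65 stood at 6.12, 5.78 and 6.27 in wild type on vehicle and at 5.70, 5.31 and 5.11 in knockout on vehicle, so that all 3 knockout mice lay below all 3 wild-type mice; the log2 change was -0.68 (SE 0.29, adjusted p = 0.43 in limma). On IIAEK it stood at 6.07, 5.97 and 5.12 in wild type and at 5.39, 6.13 and 5.28 in knockout, where the groups overlapped. Cyp2c65 and Cyp2c66 went together from mouse to mouse (Pearson r = 0.99, permutation p = 1e-05, the smallest that the permutations can give; Spearman rho = 0.98, permutation p = 1e-05; r = 0.99 without the 2 mice farthest from the median, 0.99 on slide 1 and 0.998 on slide 2). Cyp2c55 stood at 0.72, 0.41 and 1.86 in wild type on vehicle, at 1.70, 1.48 and 0.24 in wild type on IIAEK, at 0.60, 0.11 and 0.16 in knockout on vehicle and at 0.20, 1.32 and -1.18 in knockout on IIAEK. It had the smallest p of the members for the knockout effect over both treatments, a log2 change of -0.87 (SE 0.42, adjusted p = 0.93 in limma), with overlapping arrays. Without knockout on IIAEK replicate 3 that change was -0.55.

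Cyp1a1, the classical AHR target, was well above background on 4 of the 12 arrays and was left out of the tests. It stood at -7.78, -6.62 and -5.01 in wild type on vehicle, at -7.94, -7.06 and -3.68 in wild type on IIAEK, at -5.28, -6.54 and -7.22 in knockout on vehicle and at -5.40, -7.53 and -8.16 in knockout on IIAEK. The 4 arrays with a measured level were spread over all 4 groups, and wild type on IIAEK replicate 3 was the highest. Cyp2b10, a CAR target, ranged from 4.98 in knockout on IIAEK replicate 1 to 6.45 in knockout on vehicle replicate 3, with group means between 5.56 and 5.78. Por ranged from 3.95 to 5.73 and was highest in the same mouse. Ephx1, the microsomal epoxide hydrolase, was 8.64-fold lower in knockout on IIAEK replicate 3 (1.67) than in knockout on vehicle replicate 3 (4.78); its spot on wild type on vehicle replicate 1 was removed as an outlier, and that group has 2 values (3.18 and 2.84).

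**Figure D2:**
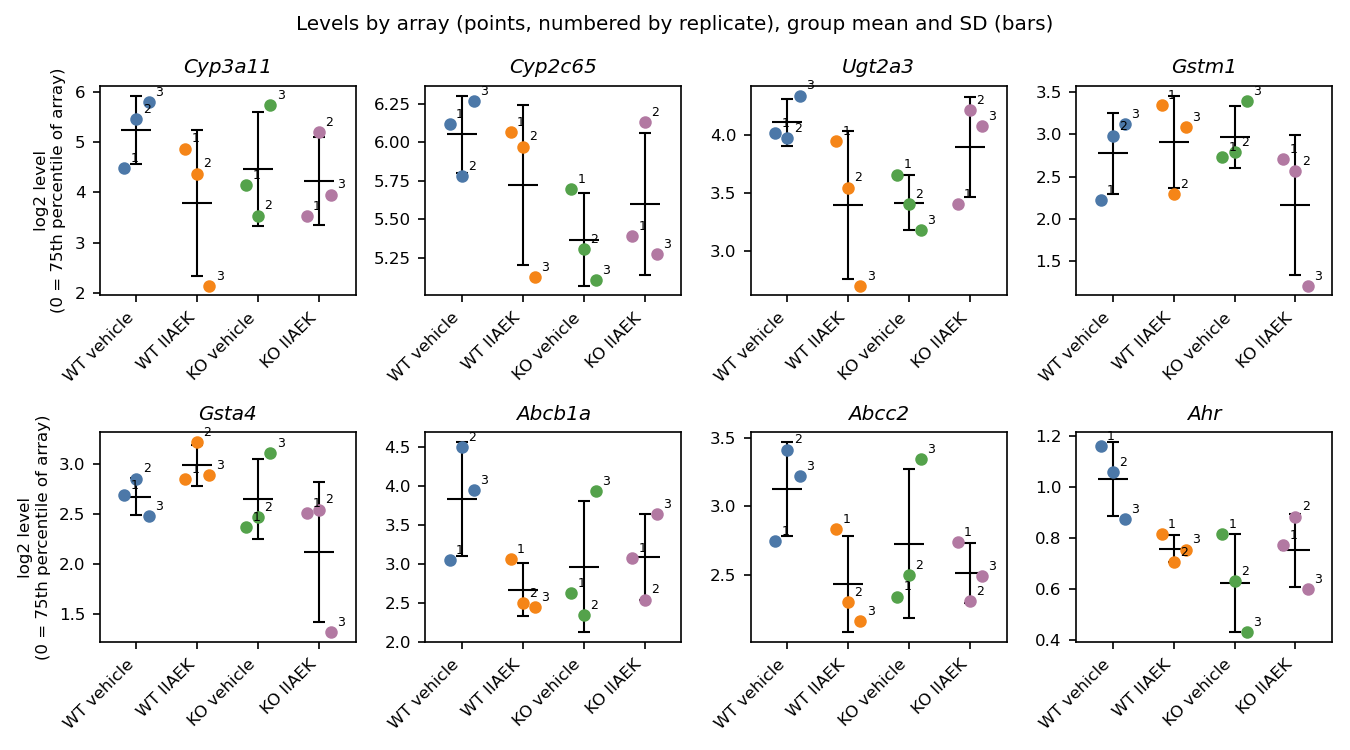
Log2 level (vertical axis, 0 is the 75th percentile of the array) of 8 genes on each array (points, numbered by replicate) by group, with the group mean and SD over 3 mice (bars). Replicate 3 of wild type on IIAEK is the lowest point for Cyp3a11 (2.15) and Ugt2a3 (2.70), and replicate 3 of knockout on IIAEK is the lowest for Gstm1 (1.20) and Gsta4 (1.31).

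Akr1b7, an aldo-keto reductase, was among the 3 members with the smallest p in wild type. It stood at 6.38, 6.76 and 6.89 on vehicle and at 6.14, 5.77 and 5.45 on IIAEK in wild type, without overlap, and at 6.55, 5.82 and 7.02 on vehicle and 6.30, 7.27 and 6.08 on IIAEK in knockout, where the groups overlapped. The log2 change on IIAEK was -0.89 (SE 0.35, adjusted p = 0.37 in limma) in wild type, and it ranged from -1.07 to -0.72 when 1 array at a time was left out. On IIAEK the knockout mean exceeded the wild-type mean by 0.76 (SE 0.35, adjusted p = 0.65), and by 0.40 without knockout on IIAEK replicate 2.

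The carboxylesterases cleave esters and amides, among them many prodrugs. Ces1f stood at 3.69, 4.67 and 5.04 in wild type on vehicle, at 4.39, 2.96 and 3.15 in wild type on IIAEK, at 4.03, 3.93 and 3.95 in knockout on vehicle and at 3.09, 3.85 and 3.61 in knockout on IIAEK. The knockout groups did not overlap and the wild-type groups did, because wild type on vehicle replicate 1 lay below wild type on IIAEK replicate 1. Its effect over both genotypes was the one with the smallest p among the members, a log2 change of -0.71 (SE 0.28, adjusted p = 0.96). Ces2c stood at 6.17, 6.14 and 6.28 in wild type on vehicle, at 6.62, 6.36 and 6.06 in wild type on IIAEK, at 6.11, 5.90 and 5.78 in knockout on vehicle and at 6.24, 6.14 and 6.50 in knockout on IIAEK. All 3 knockout mice on IIAEK were above all 3 on vehicle, with a log2 change of 0.36 (SE 0.17, adjusted p = 0.91). Ces2e ranged from 7.04 to 7.72 over the 12 mice, the narrowest range of the 35.

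Efflux was represented by Abcb1a (P-glycoprotein), Abcc2 (MRP2) and Abcg2 (BCRP), pumps of the luminal membrane. Abcb1a stood at 3.05, 4.50 and 3.94 in wild type on vehicle, at 3.06, 2.49 and 2.45 in wild type on IIAEK, at 2.62, 2.35 and 3.93 in knockout on vehicle and at 3.07, 2.54 and 3.64 in knockout on IIAEK. The 4 highest mice were wild type on vehicle replicates 2 and 3, knockout on vehicle replicate 3 and knockout on IIAEK replicate 3, and all groups overlapped. The change on IIAEK in wild type was 2.24-fold lower, or -1.16 in log2 (SE 0.46, adjusted p = 0.37 in limma), the smallest p of the members; it was -1.05 without wild type on IIAEK replicate 3 and -0.83 without wild type on vehicle replicate 2. Within slide 1, which held 1 mouse of each wild-type group, the difference was 0.015, and within slide 2, with 2 mice of each, it was -1.75. In knockout the change was 0.12 (SE 0.46, adjusted p = 0.98).

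Taken over all 12 mice, Abcc2 went with Abcb1a and Abcg2 did not. Abcc2 stood at 2.75, 3.42 and 3.22 in wild type on vehicle, at 2.83, 2.30 and 2.16 in wild type on IIAEK, at 2.34, 2.50 and 3.35 in knockout on vehicle and at 2.74, 2.31 and 2.49 in knockout on IIAEK. Its change in wild type was -0.70 (SE 0.28, adjusted p = 0.37), 0.083 within slide 1 and -1.09 within slide 2. Over the 12 mice Abcb1a and Abcc2 had a Pearson r of 0.89 (permutation p = 0.00017) and a Spearman rho of 0.80 (permutation p = 0.0024); r was 0.79 without the 2 mice farthest from the median in Abcb1a, 0.84 on slide 1 and 0.91 on slide 2. For Abcb1a and Abcg2 r was -0.23 (permutation p = 0.47) and rho -0.084 (permutation p = 0.80). That r was -0.28 without the 2 mice farthest from the median in Abcb1a, 0.57 on slide 1 and -0.085 on slide 2. For Abcc2 and Abcg2 r was -0.22 over the 12 mice, 0.34 on slide 1 and -0.21 on slide 2. Without the 2 mice farthest from the median in Abcc2 it was 0.52, so the values for Abcg2 depended on the mice included. With each group's mean taken out, r was 0.86 for Abcb1a with Abcc2 and -0.68 for Abcb1a with Abcg2. The mice high in Abcb1a included the pair highest in the 4 tested markers of distal small intestine, wild type on vehicle replicate 2 (score 0.90) and knockout on vehicle replicate 3 (0.95); the other 10 mice lay between -0.49 and 0.23. The part of position along the gut was not tested.

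**Figure D3:**
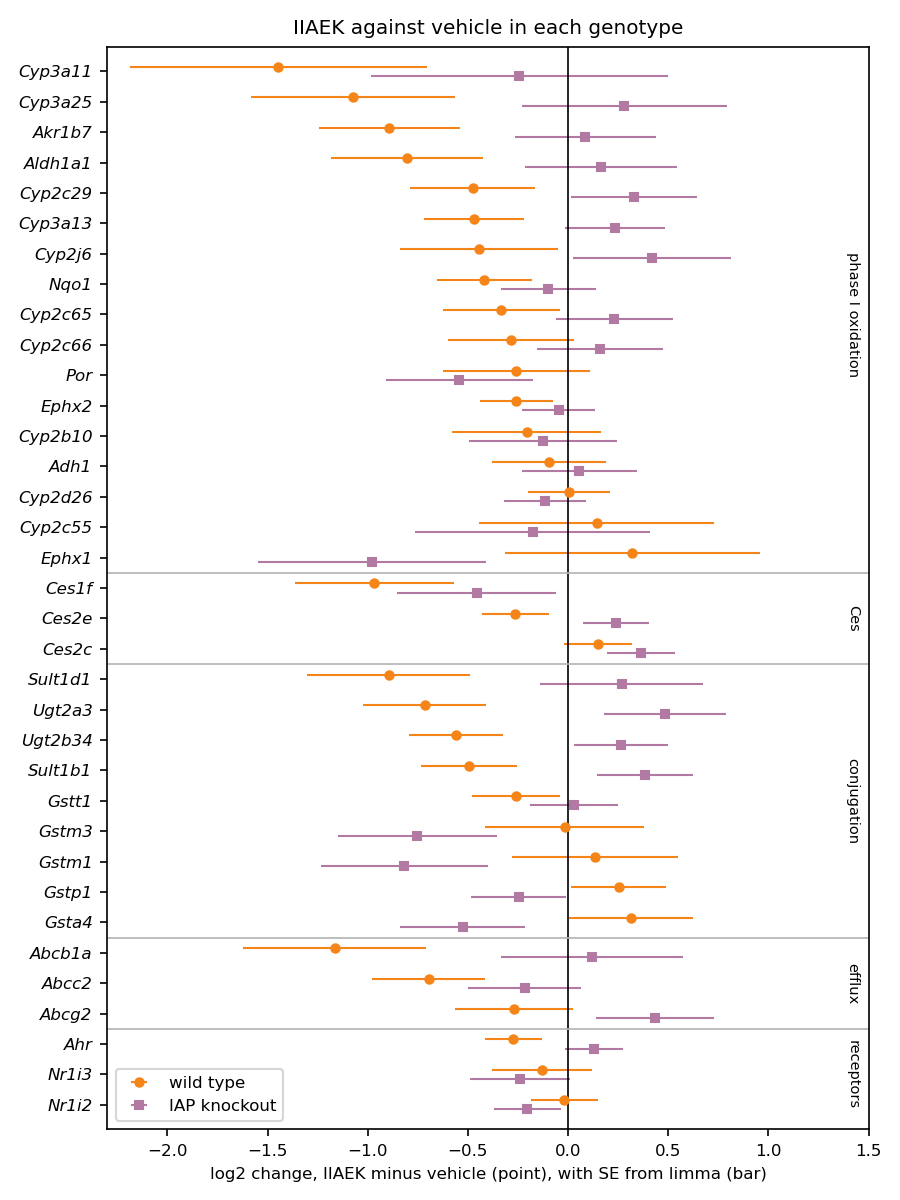
Log2 change on IIAEK (horizontal axis, IIAEK minus vehicle, with the SE from limma) of the 35 genes in wild type (orange circles) and in IAP knockout (purple squares), grouped by role; Ces, carboxylesterases. In wild type 28 of 35 points lie left of 0, and in knockout 16 of 35, and no point passed an adjusted p of 0.05.

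IIAEK against vehicle in knockout asked the same question without Akp3. The members lay on both sides of 0, 19 above and 16 below, with a median change of 0.056; over all tested features 48.9% were below 0. In limma's test 0 of 35 had an adjusted p under 0.05, as had 0% of all tested features, and 0 had an unadjusted p under 0.05, against 4.42% of all tested features. The arrays of the groups did not overlap in 4 members (11.4%), against 7.53% of all tested features: Gstm1, Gstm3 and Ces1f were lower and Ces2c was higher. In the same comparison the 10 B cell markers, all tested, scored 1.17 to 1.70 on vehicle and -1.53 to -1.12 on IIAEK, without overlap. The 6 Paneth cell markers, all tested, scored -0.59 to 0.0061 on vehicle and 0.013 to 1.21 on IIAEK, also without overlap. The part of both lists in the result was not tested. The median change of the members was 0.16 within slide 1, with 2 mice of each group, and -0.34 within slide 2, with 1 mouse of each.

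The glutathione S-transferases, which couple glutathione to electrophiles, include Gstm1 and Gstm3, which were among the 3 members with the smallest p in this comparison. Gstm1 stood at 2.73, 2.79 and 3.40 in knockout on vehicle and at 2.71, 2.57 and 1.20 in knockout on IIAEK, and in wild type at 2.22, 2.98 and 3.12 on vehicle and 3.35, 2.29 and 3.09 on IIAEK. The knockout groups were separated by the narrow gap between replicates 1, and replicate 3 on IIAEK alone lay far below the others. Gstm3 had the same pattern, at 5.11, 5.15 and 5.53 in knockout on vehicle, 4.94, 5.08 and 3.51 in knockout on IIAEK, 4.71, 5.32 and 5.51 in wild type on vehicle and 5.57, 4.57 and 5.34 in wild type on IIAEK. The log2 changes in knockout were -0.82 (SE 0.41, adjusted p = 0.91) for Gstm1 and -0.75 (SE 0.40, adjusted p = 0.91) for Gstm3. Without knockout on IIAEK replicate 3 they were -0.34 and -0.25. Gstm1 and Gstm3 had a Pearson r of 0.98 and a Spearman rho of 0.98 over the 12 mice (permutation p = 1e-05 for each, the smallest possible), with r = 0.96 without the 2 farthest mice, 0.96 on slide 1 and 0.99 on slide 2.

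Gsta4, which detoxifies products of lipid peroxidation, stood at 2.69, 2.86 and 2.48 in wild type on vehicle, at 2.85, 3.22 and 2.89 in wild type on IIAEK, at 2.37, 2.47 and 3.11 in knockout on vehicle and at 2.51, 2.55 and 1.31 in knockout on IIAEK. On IIAEK all 3 knockout mice were below all 3 wild-type mice, with a log2 change of -0.87 (SE 0.31, adjusted p = 0.65 in limma), and -0.46 without knockout on IIAEK replicate 3. That mouse also had the highest score of the 6 Paneth cell markers, 1.21, against -0.59 to 0.29 in the other 11. The Paneth score was -0.38 to -0.12 in wild type on IIAEK and 0.013 to 1.21 in knockout on IIAEK, without overlap, and its part in the result was not tested. Gstp1 was likewise lowest there, at 1.70 against 2.31 to 2.77 elsewhere. Knockout against wild type on IIAEK had 0 of 35 members at an adjusted p under 0.05, beside 0% of all tested features, 1 member at an unadjusted p under 0.05 (Gsta4), beside 7.66%, and 1 without overlap (Gsta4), beside 9.39%. The median change of the members was 0.066, with 14 of 35 below 0, and over all tested features 47% were below 0. The median was -0.24 within slide 1, with 1 wild-type and 2 knockout mice, and 0.27 within slide 2, with 2 and 1.

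Knockout against wild type on vehicle asked what the loss of Akp3 alters without the peptide. Here 27 of 35 members were below 0 and 8 above, with a median change of -0.40, against a median of -0.034 and 54.5% below 0 over all tested features. In limma's test 0 of 35 had an adjusted p under 0.05, as had 0% of all tested features; 5 (14.3%), all lower, had an unadjusted p under 0.05, against 11.4%. In 13 members (37.1%) every knockout mouse lay below every wild-type mouse, against 23.7% of all tested features without overlap. They were Aldh1a1, Cyp2c29, Cyp2c65, Cyp2c66, Cyp2j6, Cyp3a13, Ces2c, Ces2e, Gstt1, Sult1b1, Ugt2a3, Ugt2b34 and Ahr. The adipose markers (5 of 6 tested, without Plin1) scored -2.04 to -0.39 in wild type and 0.065 to 1.82 in knockout, without overlap, and their part in the result was not tested. The median change of the members was -0.42 without knockout on vehicle replicate 3, the mouse with the next highest pancreas score, and it was -0.29 on each slide taken alone. The count at an unadjusted p under 0.05 was 2 without wild type on vehicle replicate 1. It was also 2 without knockout on vehicle replicate 2 or replicate 3. It was 1 without wild type on vehicle replicate 3, 8 without wild type on IIAEK replicate 3, and 9 with the slide as a block. For these fits the share of all tested features is not given, so the counts cannot be set against other genes.

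The genes with the smallest p in this comparison were Ahr and conjugating enzymes. Ahr stood at 1.16, 1.06 and 0.87 in wild type on vehicle, at 0.81, 0.71 and 0.75 in wild type on IIAEK, at 0.81, 0.63 and 0.43 in knockout on vehicle and at 0.77, 0.88 and 0.60 in knockout on IIAEK. The wild-type mice on vehicle were above all wild-type mice on IIAEK and all knockout mice on vehicle. The log2 change of Ahr was -0.41 (SE 0.14, adjusted p = 0.42 in limma) in the knockout on vehicle, -0.44 within slide 1 and -0.54 within slide 2. Ugt2b34, a glucuronosyltransferase, stood at 6.62, 6.26 and 6.47 in wild type on vehicle, at 6.30, 6.02 and 5.35 in wild type on IIAEK, at 6.04, 5.87 and 5.59 in knockout on vehicle and at 5.96, 6.35 and 5.97 in knockout on IIAEK. Sult1b1, a sulfotransferase of phenols and thyroid hormones, stood at 6.92, 6.58 and 6.76, at 6.52, 6.46 and 5.82, at 6.54, 6.13 and 5.83, and at 6.37, 6.89 and 6.40 in the same order of groups. In both genes all knockout mice on vehicle lay below all wild-type mice on vehicle, by 0.62 (SE 0.23, adjusted p = 0.42) for Ugt2b34 and 0.59 (SE 0.24, adjusted p = 0.43) for Sult1b1 in the group means.

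The interaction of IIAEK and genotype asks whether the response to IIAEK differed between the genotypes. Of the 35 members, 25 were above 0 (the change more positive in knockout) and 10 below, with a median of 0.45. Over all tested features the median was 0.057 and 45.5% were below 0. This interaction, IIAEK in wild type and the knockout on vehicle all use the mice of wild type on vehicle. They are therefore not independent results. The mean score of the members was 0.25 in wild type on vehicle. It was -0.12 in wild type on IIAEK, -0.052 in knockout on vehicle and -0.084 in knockout on IIAEK. No member passed (0 of 35, beside 0% of all tested features; smallest adjusted p 0.31), and 3 had an unadjusted p under 0.05 (8.57%), beside 15.1% of all tested features. They were Ugt2a3, Sult1b1 and Ugt2b34. The count was 1 without wild type on IIAEK replicate 3 and 10 without wild type on IIAEK replicate 1. The share of all tested features in these refits is not given, so the counts cannot be set against other genes. The members had a median of 0.017 on slide 1 and of 0.49 on slide 2. Ugt2a3 stood at 4.02, 3.98 and 4.35 in wild type on vehicle, at 3.95, 3.55 and 2.70 in wild type on IIAEK, at 3.66, 3.41 and 3.18 in knockout on vehicle and at 3.40, 4.22 and 4.08 in knockout on IIAEK. Its interaction was 1.20 (SE 0.43, adjusted p = 0.31 in limma), 0.85 without wild type on IIAEK replicate 3, 0.35 within slide 1 and 1.94 within slide 2. The interaction was 0.88 (SE 0.34, adjusted p = 0.31) for Sult1b1 and 0.82 (SE 0.33, adjusted p = 0.31) for Ugt2b34. In signs, 18 members were lower on IIAEK in wild type and higher in knockout, 10 were lower in both, 1 was higher in both and 6 were higher in wild type and lower in knockout.

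The receptors PXR and CAR had narrow ranges in most mice. Nr1i2 stood at 2.59, 2.84 and 2.73 in wild type on vehicle, at 2.70, 2.69 and 2.72 in wild type on IIAEK, at 2.78, 2.54 and 3.12 in knockout on vehicle and at 2.80, 2.63 and 2.40 in knockout on IIAEK. Its change on IIAEK was -0.018 (SE 0.17, adjusted p = 0.96) in wild type and -0.20 (SE 0.17, adjusted p = 0.91) in knockout, and the groups overlapped in every comparison. Nr1i3 ranged from 0.92 to 2.03 and was highest in knockout on vehicle replicate 3, as was Nr1i2. Over the 12 mice Nr1i2 and Nr1i3 had a Pearson r of 0.42 (permutation p = 0.18) and a Spearman rho of 0.12 (permutation p = 0.72). That r was -0.33 on slide 1, 0.46 on slide 2 and 0.27 without the 2 mice farthest from the median in Nr1i2. Without replicate 3 of wild type on IIAEK and of knockout on IIAEK it was 0.81. Of the 18 pairs of related genes examined in this way, 14 had a Benjamini-Hochberg adjusted permutation p under 0.05 by both measures. The 4 others were Abcb1a with Abcg2, Abcc2 with Abcg2, Ephx1 with Ephx2 and Nr1i2 with Nr1i3. Unrelated pairs were not examined, and 30 members were below their own mean on wild type on IIAEK replicate 3. Whether related genes went together more than other pairs was therefore not tested. The adjusted p of the Pearson r was 0.000437 for Abcb1a with Abcc2, 0.000108 for Cyp3a11 with Cyp3a25 and 4.5e-05 for the Cyp2c65 and Gstm1 pairs described above.

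**Figure D4:**
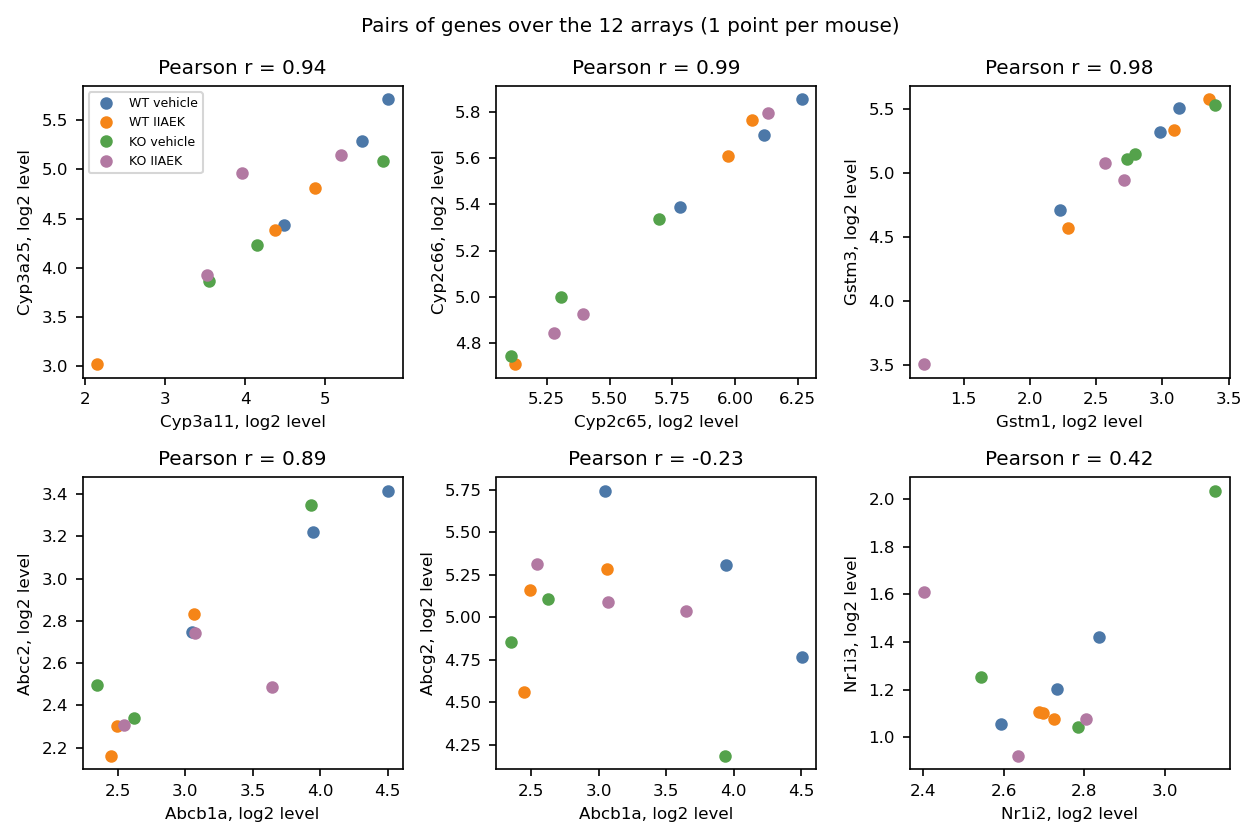
Log2 levels of 6 pairs of related genes against each other, 1 point per mouse and 12 mice per panel, coloured by group, with Pearson r above each panel. The Cyp3a, Cyp2c and Gstm pairs and the pumps Abcb1a and Abcc2 lie along a line, with r from 0.89 to 0.99, and Abcb1a with Abcg2 (-0.23) and Nr1i2 with Nr1i3 (0.42) do not.

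Averaged over both genotypes, IIAEK gave 32 of 35 members a log2 change below 0, with a median of -0.12, against 54.5% below 0 and a median of -0.017 over all tested features. None passed (0 of 35, beside 0% of all tested features), 2 (Ces1f and Abcc2) had an unadjusted p under 0.05, beside 3.4%, and in none did the 6 treated and 6 control arrays separate, beside 0.0363%. The median change was 0.14 within slide 1 and -0.39 within slide 2. Averaged over both treatments, the knockout gave 28 of 35 members a change below 0, with a median of -0.15, against 51.2% and a median of -0.004 over all tested features. None of the 35 passed, beside 0.00363% of all tested features (1 gene), 0 had an unadjusted p under 0.05, beside 5.37%, and 0 separated, beside 0.359%. For slide 1 alone this median was -0.30 and for slide 2 alone -0.021.

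Other genes of the same pathway, 123 in 6 lists that hold none of the 36, were read from the same fits, and 111 of them were tested. None passed an adjusted p of 0.05 in any comparison. For IIAEK in wild type 70 of 111 (63.1%) were below 0, beside 57% of all tested features, with a median change of -0.19, and 12 (10.8%) had an unadjusted p under 0.05, beside 13%; 11 of the 12 were lower. The genes with the smallest p were Gstk1, a glutathione S-transferase (-0.88, SE 0.29, adjusted p = 0.37 in limma), and Nat2, an arylamine N-acetyltransferase (-0.62, SE 0.23, adjusted p = 0.37). The 40 tested oxidising and reducing enzymes had a median of -0.43, with 31 below 0, the 10 carboxylesterases -0.23, the 30 conjugating enzymes -0.21, the 12 transporters 0.13, the 10 receptors and partners 0.039 and the 9 NRF2 targets -0.004. For IIAEK in knockout 66 of 111 were below 0, beside 48.9% of all tested features, with a median of -0.059. Slco2b1, an organic anion uptake transporter (-0.49, SE 0.22), and Nat2 (0.52, SE 0.23) had the smallest p (adjusted p = 0.91 for each in limma).

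For the knockout on vehicle 66 of the 111 were below 0, beside 54.5% of all tested features, with a median of -0.13. Abcc4, an efflux pump (0.53, SE 0.19), and Nat2 (-0.62, SE 0.23) had the smallest p (adjusted p = 0.42 for each in limma). On IIAEK they were Gsta2 (-0.51, SE 0.16) and Cyp2w1 (-0.73, SE 0.30), with an adjusted p of 0.65 for each. The interaction had its smallest p in Nat2 (1.14, SE 0.33) and in Maoa, monoamine oxidase A (1.76, SE 0.58), each at an adjusted p of 0.31. Over both genotypes IIAEK had its smallest p in Ces1g (-0.69, SE 0.31) and Slc47a1, a cation extruder (-0.66, SE 0.30), each at an adjusted p of 0.96. Over both treatments the knockout had its smallest p in Gsta2 (-0.38, SE 0.11, adjusted p = 0.65) and Abcc4 (0.33, SE 0.13, adjusted p = 0.88). Nat2 was thus among the genes named in 4 of the 7 comparisons, which share groups of mice.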

How the data were processed

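Total RNA of the jejunum was labelled with Cy3 and hybridised to Agilent 8x60K mouse arrays, 1 mouse per array, per the labels. The files the authors deposited hold, per the file headers, the processed signal of Feature Extraction 10.7.3.1 as an intensity with background subtracted, and the median intensity of spot and background. The authors also deposited a table of log2 values; scaling to the 75th percentile and centring by probe were found from its values (correlation at least 0.9997) and are not stated.

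Here log2 signals were reduced by the 75th percentile of each array, non-uniform outlier spots (0 to 4 per array) were dropped, and the brightest probe stood for a gene. Of 56605 probes, 32994 had a symbol through RefSeq accessions. A gene was tested if well above background on all 3 arrays of a group. The 4 group means were fitted with limma 3.58.1 in R 4.3.3, on 8 residual and 3.37 prior degrees of freedom, with two-sided tests and Benjamini-Hochberg adjustment over 27565 features; calls needed an adjusted p under 0.05. An exact test of 3 against 3 mice cannot give p below 0.1. The arrays lay on 2 slides, read in 2 scans; slide 1 held replicate 1 of each wild-type group and replicates 1 and 2 of each knockout group. Correlations used 100000 permutations over all mice, which do not keep groups or slides apart. The scripts were tested on simulated data, with noise independent from gene to gene, unlike the shifts shared within an array here. For IIAEK in wild type the fit called 42.5% of simulated log2 changes of 1 and 89.5% of those of 2. The changed genes were drawn from all tested features. The members varied more between mice, with a median SD of 0.47 beside 0.21 in wild type on IIAEK and 0.25 beside 0.18 on vehicle. Recovery was not simulated for the members alone, so these shares do not apply to them. A member that was not called may therefore still have changed.

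The members, lists and tests were chosen with earlier results of these data known. By rule, values by array are given for the 3 members with the smallest p in each comparison and for Cyp1a1, Cyp3a11, Abcb1a, Nr1i2 and Ahr, and 2 genes of the wider lists are named per comparison; Cyp2c65 was added after its values were seen. Alternatives were other scaling, background correction, filters, probe means, the authors' table, slide or replicate as a block, a variance trend, only the groups compared, and arrays left out.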

Additional observations from a re-analysis of the deposited data

How the results depend on the processing

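Under every alternative run, 0 members passed an adjusted p of 0.05 in any of the 7 comparisons and no named member crossed the threshold. The medians that moved by more than the spread between replicates (SD 0.23) did so within slides: IIAEK in wild type, 0.094 within slide 1; IIAEK in knockout, -0.34 within slide 2; knockout against wild type on IIAEK, -0.24 within slide 1; the interaction, 0.017 within slide 1; and IIAEK over both genotypes, 0.14 within slide 1 and -0.39 within slide 2. The cause was not tested.

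With 1 array left out, the count of members called was 0 throughout, and the median change ranged from -0.43 to -0.11 for IIAEK in wild type, from -0.09 to 0.12 for IIAEK in knockout, from -0.42 to -0.27 for the knockout on vehicle, from -0.07 to 0.29 for the knockout on IIAEK, from 0.27 to 0.62 for the interaction, from -0.21 to -0.08 for IIAEK over both genotypes and from -0.23 to -0.02 for the knockout over both treatments. Chosen after seeing the data, wild type on IIAEK replicate 3 was left out with knockout on vehicle replicate 3 (pancreas markers), or with knockout on IIAEK replicate 3. Each gave 0 members called in every comparison. In that order, IIAEK in wild type had a median of -0.11 in both cases, and the interaction 0.26 and 0.29. The medians were -0.0042 and -0.036 for IIAEK over both genotypes, and -0.074 and -0.057 for the knockout on IIAEK. They were 0.099 and 0.069 for IIAEK in knockout, -0.42 and -0.40 for the knockout on vehicle, and -0.28 and -0.22 for the knockout over both treatments. Counts at an unadjusted p under 0.05 depended on the fit. With the slide as a block they were 9 for the knockout on vehicle, 6 for the interaction and 7 for the knockout over both treatments. Without the block they were 5, 3 and 0. With only the groups compared the count was 11 for the knockout on vehicle. The shares of all tested features in these alternative fits are not given, so no rise beyond that of other genes can be read from them. For the 9 members with 2 probes, the probes differed by at most 0.24 in the change on IIAEK within a genotype. The largest difference was in Sult1b1. Its main and second probes gave -0.49 and -0.69 in wild type and 0.38 and 0.63 in knockout. These differences add up, so its interaction was larger by the second probe than by the main probe. For the knockout on vehicle the 2 probes gave -0.59 and -0.79. For the background correction by normexp the median signal was used, a choice made after seeing the files.

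Replicate numbers are shared between groups, and same-numbered mice of a genotype shared a slide. Correlations of the deviations of same-numbered mice from the group means ran from -0.25 to 0.35 over 12 pairs, and 4 were over 0.1. Between vehicle and IIAEK they were 0.21, 0.091 and 0.35 in knockout and 0.025, -0.14 and -0.25 in wild type. With the replicate block the medians were -0.27, 0.056, -0.40, 0.066, 0.45, -0.12 and -0.15 in the order of the ranges above, and 0 members were called. With 3 mice per group, probes near background, such as Cyp1a1, give only bounds.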
